A study of Mus musculus with 8 samples.

Results

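The genes examined here encode voltage-gated sodium channel subunits of the brain: the pore-forming alpha subunits Scn1a, Scn2a, Scn3a and Scn8a and the beta subunits Scn2b, Scn3b and Scn4b. They were chosen by name, with earlier results of these data known. Every probe set that the platform annotation gives to them was kept, which made 20 probe sets for 7 genes of 18193 named genes. RNA came from the striatum of 4 R6/2 transgenic mice and 4 wild-type mice, 1 Affymetrix array per mouse. All animals were labelled as females of 12 weeks (85 days) on a C57Bl/6 / CBA background, and R6/2 mice carry, in addition, a transgene with the first part of human huntingtin and an expanded CAG repeat, made to model Huntington's disease. The wild-type mice bore the numbers 42, 48, 54 and 63 and the R6/2 mice 64, 65, 70 and 78. The comparison addressed which striatal transcripts differ between the genotypes at this age.

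An alpha subunit forms the pore, opens on depolarization and carries the inward sodium current of the action potential. Beta subunits are single-pass membrane proteins with an extracellular immunoglobulin fold that change the gating and surface level of the alpha subunit and act in cell adhesion. Beta subunits encoded by Scn2b and Scn4b are linked to the alpha subunit by a disulfide bond, and the one encoded by Scn3b binds without it. Scn4b is abundant in medium spiny neurons, the projection neurons of the striatum, and its cytoplasmic tail is known for blocking open channels in a way that gives resurgent current.

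In R6/2 striatum the transcript of Scn4b was 4.69-fold lower than in wild-type striatum, at 21.3% of the wild-type level. Scn8a fell by much less, to 79.8% and 76.5% of wild-type by its 2 brightest probe sets. The others of its 5 probe sets did not pass, among them 1457412_at, nearly as bright as the second, at 92.5%. One bright probe set of Scn2b fell to 65.1%, while a second bright one of the same gene varied widely within both groups and did not pass. Scn3b went the other way: its dimmer probe set rose to 161% of wild-type, and its bright one, at 121%, passed over genes but not over probe sets. No probe set of Scn1a, Scn2a or Scn3a passed.

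Levels are RMA values, log2 intensities per probe set normalized by the authors, and they allow each probe set to be compared between mice but not with another probe set. A difference is R6/2 minus wild-type on the log2 scale, with the moderated standard error (SE) of limma. A probe set was called when its p-value, adjusted by Benjamini-Hochberg over 45037 probe sets, was under 0.05. Of the 20 probe sets, 4 were called lower, against 4.59% of all probe sets, 1 was called higher, against 5.54% of all, and 15 were not called. Their median difference was -0.10, beside -0.017 over all probe sets. For 6 of them, against 16.1% of all probe sets, no R6/2 value lay among the wild-type values: lower in R6/2 for 4 (7.07% of all probe sets) and higher for 2 (9.05% of all). At an unadjusted p under 0.05 there were 8 of the 20, against 25.0% of all probe sets.

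Array medians lay between 5.08 and 5.13, and 9 probe sets of Y-linked genes, which female mice lack, read between 2.77 and 3.67 and show where background lies. The number of arrays, 4 in each group, limits the precision. Wild-type mouse 42 stood apart in the 3' minus 5' control signals, a measure of RNA integrity: 1.19 for Gapdh against 0.41 to 0.52 in the other wild-type mice and 0.23 to 0.35 in R6/2 mice, and 2.40 for actin against 1.37 to 1.58 in the other 7 mice. The Gapdh value was thus lower in every R6/2 mouse than in every wild-type mouse. Markers of cell types were read with 1 probe set per gene and called over 18193 genes, not over probe sets. With limma, 6.19% of all genes were called lower and 9.09% higher. Genes of medium spiny neurons were bright on every array, and all 8 measured markers were called lower. Their mean was 11.36 to 11.67 in wild-type and 10.61 to 10.66 in R6/2 mice. In bulk tissue, fewer cells of a type and less RNA per cell cannot be told apart. Of 14 measured markers of cortical projection neurons, 3 were called lower, and their mean level was 6.29 to 7.14 in the wild-type group and 5.87 to 6.74 in the R6/2 group. Of 10 markers of striatal interneurons, 3 were called lower and none higher, with means of 7.09 to 7.39 in wild-type and 6.70 to 7.01 in R6/2 mice. Markers outside neurons moved too: 3 of 7 astrocyte markers were called lower (median -0.30, means of 9.88 to 10.24 in wild-type and 9.70 to 9.79 in R6/2 mice), and 3 of 5 endothelial markers were (median -0.39, means of 6.50 to 6.85 and 6.15 to 6.35). Of 7 oligodendrocyte markers 1 was called lower, with overlapping means of 10.38 to 10.81 and 10.29 to 10.54. With limma none of 5 oligodendrocyte progenitor markers (8.04 to 8.14 and 8.01 to 8.11), 6 microglia markers (7.70 to 7.94 and 7.73 to 7.93) or 5 choroid plexus markers (6.69 to 9.02 and 6.67 to 9.58) was called. Of these, 2, 2 and 0 had an unadjusted p under 0.05, against 29.6% of all genes. The part of these cell types in the results for the channel genes was not tested.

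**Figure D1:**
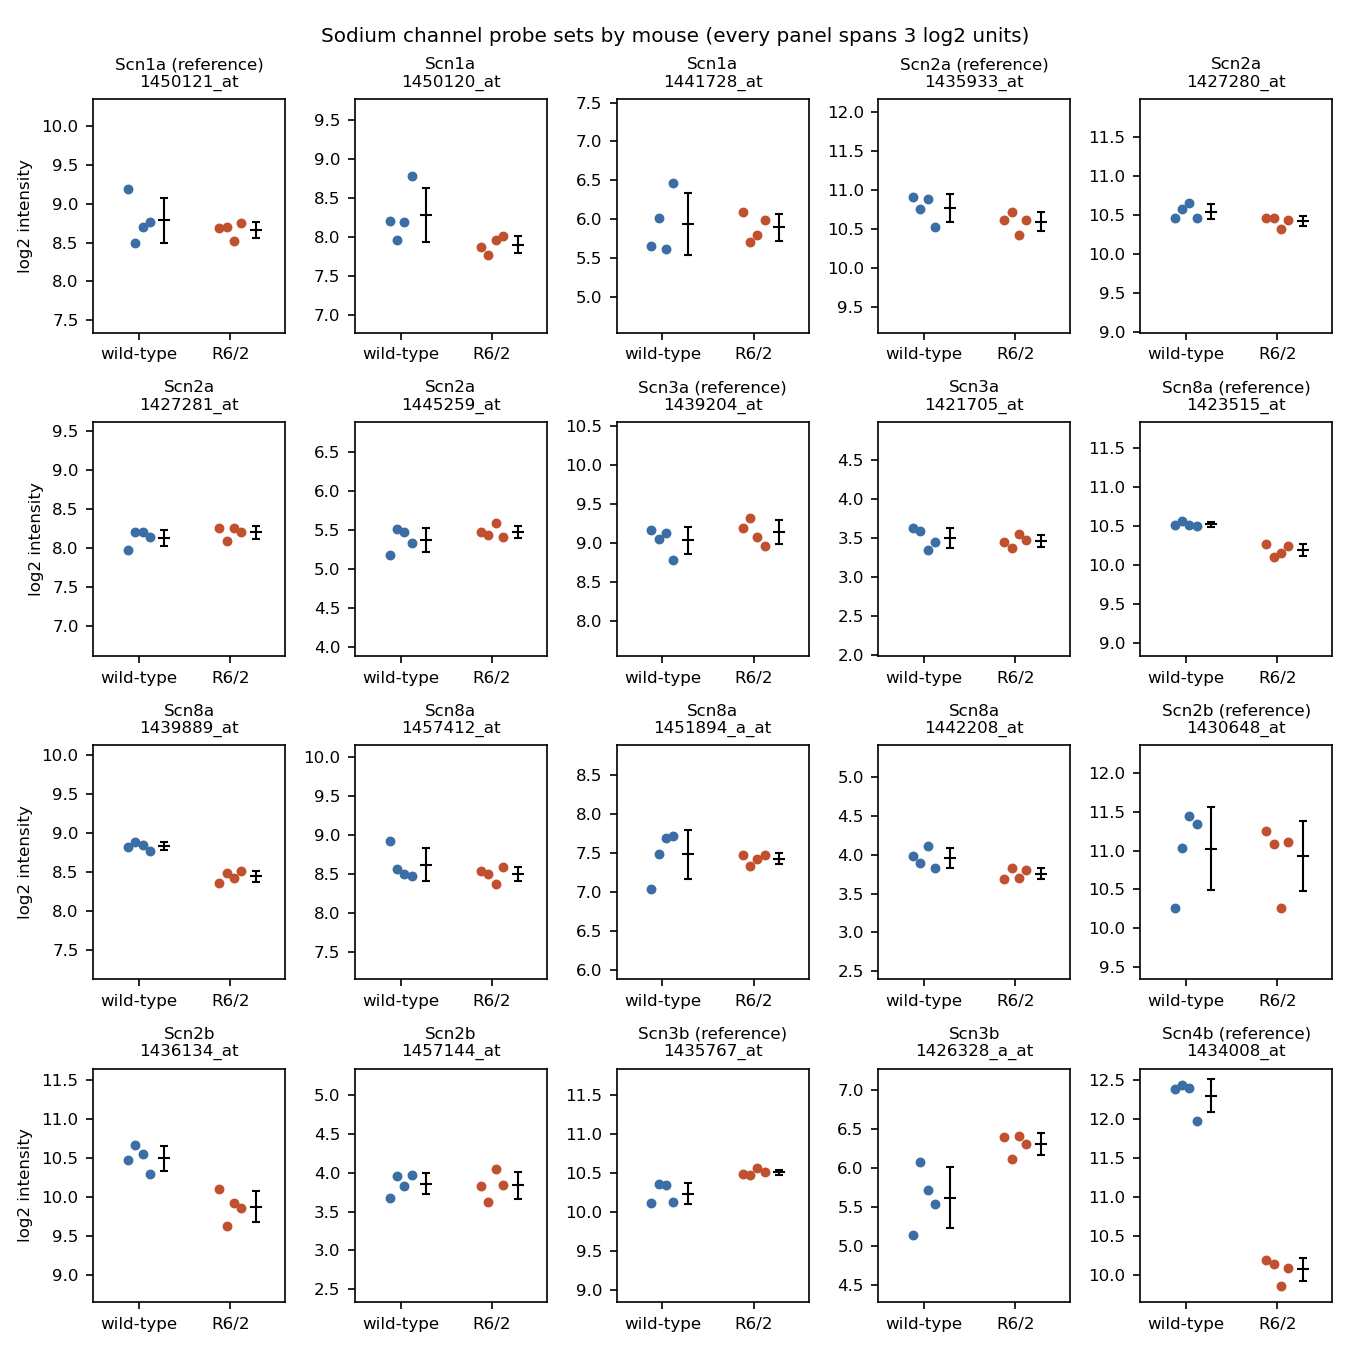
The log2 intensity of each of the 20 probe sets is plotted for every mouse (points, wild-type in blue and R6/2 in red) with the mean and SD of each group in black, and each panel spans 3 log2 units. Scn4b separated the groups by over 1 unit, Scn8a 1423515_at, Scn8a 1439889_at and Scn2b 1436134_at lay lower without overlap, and both Scn3b probe sets lay higher without overlap.

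Scn4b, the beta subunit of open-channel block, was measured by 1 probe set, 1434008_at. It read 12.39, 12.44, 12.40 and 11.98 in wild-type mice 42, 48, 54 and 63, and 10.19, 10.14, 9.86 and 10.10 in R6/2 mice 64, 65, 70 and 78. The groups lay far apart, wild-type mouse 63 being the lowest of its group and R6/2 mouse 70 the lowest of all. The difference was -2.23 ± 0.12 (log2, SE, adjusted p = 5.56e-05 by limma), with a 95% interval from -2.49 to -1.97. Both group means, 12.30 and 10.07, lay well above background. Without any 1 array the difference ranged from -2.34 to -2.16, with an adjusted p of at most 0.000803. With the mean of the cortical markers as a covariate it was -2.29 (adjusted p = 0.00239).

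Set against the other markers of its cell type on the same array, Scn4b was lower still. The 8 medium spiny neuron genes had a median difference of -0.94 and ranged from -1.29 for Penk, the enkephalin precursor, to -0.40 for the transcription factor gene Foxp1. The value of Scn4b minus the mean of these 8 genes differed between the groups by -1.30, with SDs of 0.071 in wild-type and 0.13 in R6/2 mice (n = 4 each; 2-sided exact permutation test, p = 0.0286, which is the lowest value 70 arrangements can give; adjusted p = 0.0333 over the 7 members). For Scn1a, Scn2a, Scn3a, Scn8a and Scn3b the same quantity was higher in every R6/2 mouse than in every wild-type mouse, by 0.81, 0.76, 1.04, 0.61 and 1.20 (each exact p = 0.0286, adjusted p = 0.0333). These 5 genes therefore changed less than the medium spiny neuron mean or in the other direction. That mean itself fell without overlap (11.36 to 11.67 in wild-type, 10.61 to 10.66 in R6/2 mice). A gene that hardly changed would thus also separate the groups, and these 5 p-values show no change of the genes themselves. The adjusted p of Scn4b is under 0.05 only because these genes share the lowest p. For Scn2b it was 0.84 with overlapping groups (exact permutation p = 0.0857). The test was chosen after the values had been seen.

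**Figure D2:**
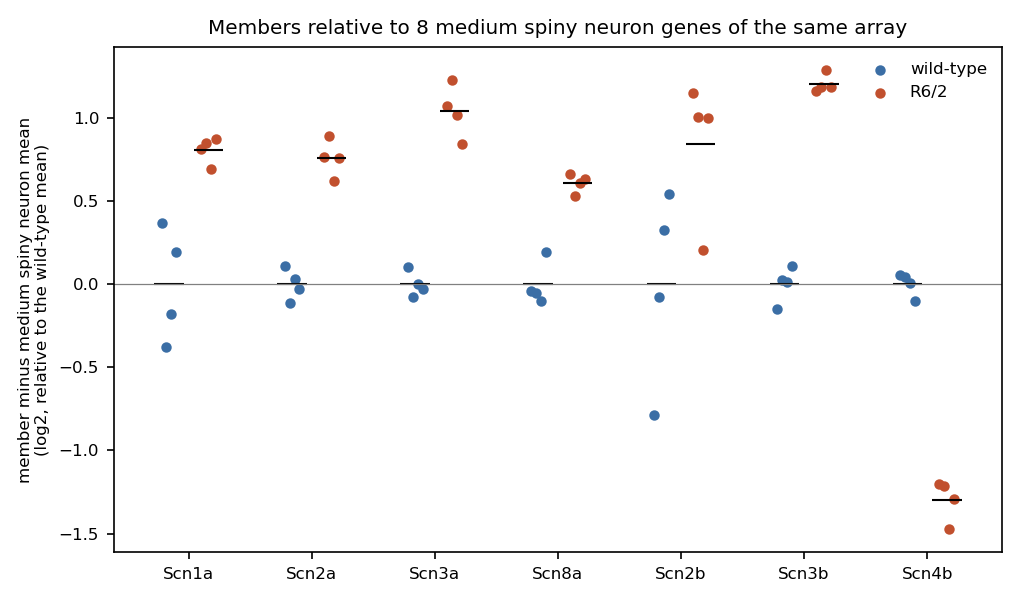
For each member's reference probe set, the log2 value minus the mean of 8 medium spiny neuron genes on the same array is shown per mouse (points) relative to the wild-type mean, with group means as black lines. Scn4b lay 1.30 lower in R6/2 mice, and the other members lay 0.61 to 1.20 higher, with overlap between the groups for Scn2b.

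Scn2b and Scn4b are direct neighbours among the protein-coding genes of mouse chromosome 9 in RefSeq (GRCm38.p6), on the same strand, and their listed start sites lie 20748 bases apart. Scn1a, Scn2a and Scn3a lie together on chromosome 2 with Scn7a and Scn9a, and Scn8a is on chromosome 15. Scn4b and Scn2b are neighbours with estimated changes of -2.23 for Scn4b and, for Scn2b, -0.093 (1430648_at) and -0.62 (1436134_at). The value of Scn2b 1430648_at minus that of Scn4b was higher in R6/2 mice by 2.14, without overlap. Its exact permutation p of 0.0286, the lowest possible, became 0.0600 after adjustment over the 21 pairs. With that lowest p no pair could pass on its own, so the missed threshold does not show that the 2 genes changed alike. The 95% interval of Scn4b, from -2.49 to -1.97, lay below those of 1430648_at (from -0.70 to 0.52) and 1436134_at (from -0.87 to -0.36). Scn8a is the alpha subunit gene with called probe sets. For these genes the windows from 250 bases before to 50 bases after the listed starts are shown. They lie at chr9:45138374-45138673 for Scn4b, at chr9:45117626-45117925 for Scn2b and at chr15:100870395-100870694 for the first listed start of Scn8a, all on the plus strand. Capitals mark CG dinucleotides, the sites of DNA methylation.
Scn4b: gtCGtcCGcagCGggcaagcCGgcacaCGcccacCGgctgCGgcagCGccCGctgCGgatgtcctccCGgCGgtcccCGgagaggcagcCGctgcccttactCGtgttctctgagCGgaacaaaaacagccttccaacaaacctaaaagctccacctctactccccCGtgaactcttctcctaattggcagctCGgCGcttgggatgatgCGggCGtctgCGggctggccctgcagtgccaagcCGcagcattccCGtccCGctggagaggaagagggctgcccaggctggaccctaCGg
Scn2b: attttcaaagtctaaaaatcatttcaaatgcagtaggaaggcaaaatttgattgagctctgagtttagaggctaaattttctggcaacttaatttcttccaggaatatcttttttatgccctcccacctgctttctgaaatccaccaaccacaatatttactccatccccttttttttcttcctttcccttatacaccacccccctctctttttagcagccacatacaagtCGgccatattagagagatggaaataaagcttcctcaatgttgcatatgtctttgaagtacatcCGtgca
Scn8a: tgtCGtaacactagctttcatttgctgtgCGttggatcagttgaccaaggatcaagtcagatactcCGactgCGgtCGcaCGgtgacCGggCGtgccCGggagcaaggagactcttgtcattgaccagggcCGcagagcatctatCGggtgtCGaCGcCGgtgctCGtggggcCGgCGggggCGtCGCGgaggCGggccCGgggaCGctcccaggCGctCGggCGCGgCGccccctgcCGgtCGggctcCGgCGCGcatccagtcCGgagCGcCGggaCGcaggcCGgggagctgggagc
The Scn4b window holds 26 CG dinucleotides, a number reached by 16.9% of the 32851 promoter windows of the table, and that of the first Scn8a start holds 38, reached by 4.95%. A second listed start of Scn8a, at chr15:100936021-100936320, has 12, reached by 39.6%. The Scn2b window holds 2, against a median of 7 over all windows. On either strand, TATAAA, present in 13.6% of all windows, GGGCGG, present in 35.7%, and TGACG, present in 20.8%, were absent from these windows. Of the 7 members, 5 had an entry.

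Scn2b, the disulfide-linked neighbour of Scn4b, had 3 probe sets, of which only 1436134_at was called. Probe set 1436134_at read 10.47, 10.66, 10.55 and 10.29 in wild-type mice 42, 48, 54 and 63 and 10.10, 9.62, 9.91 and 9.85 in R6/2 mice 64, 65, 70 and 78. Every R6/2 mouse lay below every wild-type mouse. It fell by 0.62 ± 0.11 (log2, SE, adjusted p = 0.00917 by limma) and was called without any 1 array, with an adjusted p of at most 0.0314. The call was lost with the cortical mean as a covariate (-0.52, adjusted p = 0.113) and without moderation of variances (adjusted p = 0.0576). The brightest probe set, 1430648_at, read 10.26, 11.04, 11.44 and 11.34 in the wild-type and 11.26, 11.09, 10.26 and 11.11 in the R6/2 mice, in the same order. Wild-type mouse 42 and R6/2 mouse 70 were low, the groups overlapped, and the difference was -0.093 ± 0.27 (adjusted p = 0.876), with an interval from -0.70 to 0.52 that includes the change of the other bright probe set. Without R6/2 mouse 70 it was 0.13, and without wild-type mouse 42 it was -0.34. The difference between the changes of these 2 probe sets, -0.53, was not larger than the spread between mice (n = 4 each, exact permutation p = 0.200). Probe set 1457144_at lay between 3.62 and 4.05 on all arrays, close to background (-0.026 ± 0.10, adjusted p = 0.913).

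Scn3b, the non-covalently bound beta subunit, was the only member with a call in the upward direction in the settings described here. Its dimmer probe set 1426328_a_at read 5.13, 6.08, 5.71 and 5.54 in wild-type mice 42, 48, 54 and 63 and 6.39, 6.11, 6.41 and 6.30 in R6/2 mice 64, 65, 70 and 78. The groups did not overlap, although wild-type mouse 48 came within 0.033 of R6/2 mouse 65. It rose by 0.69 ± 0.17 (log2, SE, adjusted p = 0.0307 by limma, 1.61-fold). The bright probe set 1435767_at read 10.12, 10.36, 10.34 and 10.13 in the wild-type mice and 10.49, 10.48, 10.56 and 10.51 in the R6/2 mice. Here too each R6/2 mouse was above each wild-type mouse, by a small margin. The difference was 0.27 ± 0.079, with an adjusted p of 0.0569 over probe sets and of 0.0422 over 18193 genes, where 1 probe set stands for each gene and 9.09% of genes were called higher. Both calls depended on single arrays. The dimmer probe set lost its call when wild-type mouse 54 or 63 was left out, and likewise R6/2 mouse 64, 70 or 78, at most to an adjusted p of 0.0851, and the gene-level call of the bright one failed when any of 6 arrays was left out, at most to an adjusted p of 0.109. With the cortical mean as a covariate the differences were 0.66 (adjusted p = 0.184) and 0.20 (adjusted p = 0.379 over probe sets).

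Scn8a, an alpha subunit concentrated at axon initial segments and nodes of Ranvier, had 5 probe sets. The brightest, 1423515_at, read 10.51, 10.56, 10.51 and 10.50 in wild-type mice 42, 48, 54 and 63 and 10.27, 10.11, 10.16 and 10.24 in R6/2 mice 64, 65, 70 and 78. It varied little within groups, with SDs of 0.027 and 0.076, and the groups did not overlap. It fell by 0.33 ± 0.068 (log2, SE, adjusted p = 0.0152 by limma). Probe set 1439889_at read 8.82, 8.89, 8.85 and 8.77 in the wild-type and 8.36, 8.49, 8.42 and 8.52 in the R6/2 mice, again without overlap. It fell by 0.39 ± 0.069 (adjusted p = 0.00767). Both were called without any 1 array, with adjusted p-values of at most 0.0483 and 0.0283. With the cortical mean as a covariate the second was called (-0.45, adjusted p = 0.0375) and the first was not (-0.28, adjusted p = 0.145). The remaining 3 did not pass: 1457412_at differed by -0.11 ± 0.11 (adjusted p = 0.568), 1451894_a_at by -0.055 ± 0.14 (adjusted p = 0.850) and 1442208_at, which lay between 3.69 and 4.11 near background, by -0.20 ± 0.082 (adjusted p = 0.162). The interval of 1457412_at, from -0.35 to 0.13, contains the change of the brightest probe set but not that of 1439889_at. In 1457412_at wild-type mouse 42 read 8.92, against 8.47 to 8.56 in the other wild-type mice. Without mouse 42 the difference of 1457412_at was -0.0093 ± 0.078, and that of 1451894_a_at was -0.20 ± 0.084. With all arrays, no exact permutation test separated the change of any other Scn8a probe set from that of the brightest (n = 4 each, lowest exact p = 0.0571).

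Scn1a, the alpha subunit known for its role in parvalbumin interneurons, was measured by 3 probe sets with no call. The brightest, 1450121_at, read 9.19, 8.50, 8.70 and 8.76 in wild-type mice 42, 48, 54 and 63 and 8.68, 8.69, 8.51 and 8.75 in R6/2 mice 64, 65, 70 and 78. The R6/2 values lay inside the wild-type range, and the difference was -0.13 ± 0.13 (adjusted p = 0.612). Without wild-type mouse 42, the highest, it was 0.0076. Probe set 1450120_at differed by -0.38 ± 0.15 (adjusted p = 0.151), with 8.78 in wild-type mouse 63 as its highest value and 7.76 in R6/2 mouse 65 as its lowest. The dimmest, 1441728_at, spanned 5.62 to 6.47 in wild-type and 5.71 to 6.10 in R6/2 mice. Pvalb, the parvalbumin gene itself, differed by -0.22 ± 0.45 (adjusted p = 0.791).

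Scn2a, the main alpha subunit of unmyelinated axons and of the initial segment of many projection neurons, had 4 probe sets, none of them called. The brightest, 1435933_at, read 10.91, 10.75, 10.88 and 10.52 in wild-type mice 42, 48, 54 and 63 and 10.61, 10.71, 10.42 and 10.61 in R6/2 mice 64, 65, 70 and 78. The groups overlapped through wild-type mouse 63, and the difference was -0.17 ± 0.10 (adjusted p = 0.337, 95% interval from -0.40 to 0.055). The next, 1427280_at, differed by -0.12 ± 0.075 (adjusted p = 0.360). The other two were slightly higher in R6/2 mice, 1427281_at by 0.073 ± 0.080 and 1445259_at by 0.099 ± 0.089 (adjusted p = 0.629 and 0.544).

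Scn3a, an alpha subunit best known from the embryonic brain, read 9.17, 9.05, 9.12 and 8.78 in wild-type mice 42, 48, 54 and 63 and 9.19, 9.31, 9.08 and 8.96 in R6/2 mice 64, 65, 70 and 78 by probe set 1439204_at. The groups overlapped, with a difference of 0.11 ± 0.11 (adjusted p = 0.593). Its other probe set, 1421705_at, had group means of 3.50 and 3.46, no higher than Y-linked genes read, and gives no measure of the gene. It is the 1 probe set of the 20 with both groups at background.

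**Figure D3:**
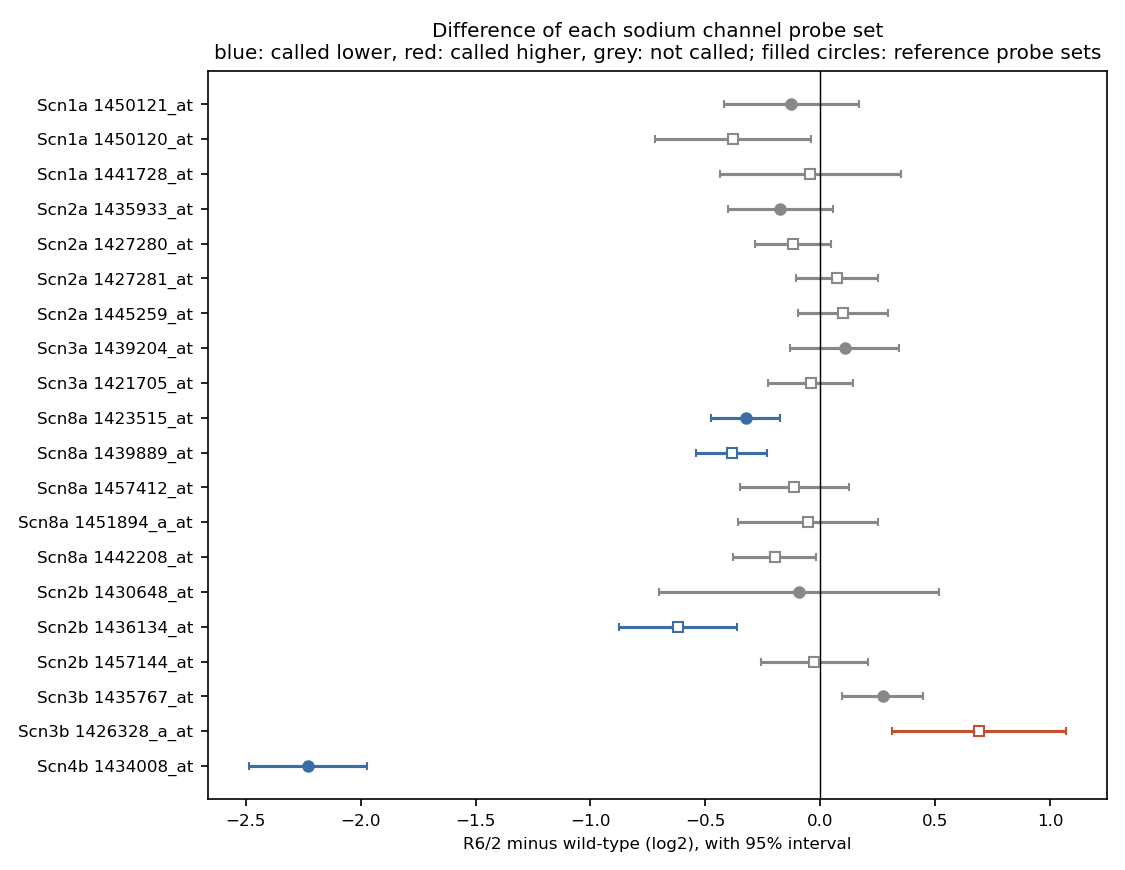
The difference R6/2 minus wild-type (log2, horizontal axis) is shown with its 95% interval for the 20 probe sets, filled circles marking the brightest of each gene. Scn4b stood at -2.23, the called probe sets of Scn8a and Scn2b between -0.62 and -0.33, and Scn3b 1426328_a_at at 0.69.

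Members were compared with each other through the difference of their reference probe sets, the brightest of each gene, on the same array. Of 21 pairs, 10 differed between the groups without overlap, each at the smallest exact permutation p of 0.0286 (n = 4 each). This became 0.0600 after adjustment over the 21 pairs, so that none passed. With that lowest p, no pair could pass on its own, whatever the size of its difference. All 6 pairs with Scn4b were among the 10, with differences of 1.90 (Scn8a) to 2.50 (Scn3b) between the changes. The other 4 were Scn8a against Scn3b (-0.60), Scn2a against Scn3b (-0.45), Scn3a against Scn8a (0.43) and Scn2a against Scn3a (-0.28). Scn2a against Scn8a gave 0.15, with overlapping groups (exact p = 0.286), so a difference between these 2 alpha subunits was not detectable with 4 mice a group.

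Other genes of sodium channel complexes were read from lists chosen with earlier results known, 1 probe set per gene, with calls over 18193 genes (6.19% called lower, 9.09% called higher, median of all genes -0.0034). Of 4 FGF homologous factors, intracellular proteins that bind the channel's C terminus and shift its inactivation, 2 fell and 2 did not pass, with a median of -0.29. Fgf11 went from 7.95 ± 0.069 to 7.46 ± 0.080 (log2, SD, n = 4 each), a fall of 0.50 ± 0.072 (SE, adjusted p = 0.00184 by limma). Its dim other probe set, 1421793_at (mean 4.33), differed by -0.089 (adjusted p = 0.606 over probe sets). Fgf14, whose loss in mice and humans causes ataxia, fell by 0.41 ± 0.10 (adjusted p = 0.0215), a call lost when wild-type mouse 48 or 54 was left out, and likewise R6/2 mouse 64 or 70 (adjusted p of at most 0.0666). It was also lost without moderation (adjusted p = 0.0747) and with the mean of its probe sets (-0.25, adjusted p = 0.101). A further bright probe set of Fgf14, 1447480_at, fell by 0.39 (adjusted p = 0.0351 over probe sets). Neither 1435747_at (-0.27, adjusted p = 0.408) nor the dim 1449958_a_at (mean 4.25, 0.054, adjusted p = 0.817) was called. Of 10 genes for modification and turnover of the channel, 1 fell: Nedd4l, a ubiquitin ligase that binds the C terminus of sodium channels, by 0.73 ± 0.14 (adjusted p = 0.00689), from 9.85 ± 0.25 to 9.12 ± 0.23. By 2 further bright probe sets Nedd4l fell by 0.75 and 0.58 (adjusted p = 0.00455 and 0.00476 over probe sets), and by 1423269_a_at it differed by -0.064 (adjusted p = 0.776). The gene-level call was lost without moderation (adjusted p = 0.0556). With the mean of its probe sets Nedd4l was called, with a smaller difference of -0.39 (adjusted p = 0.0102).

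None of the 8 genes that anchor the channel at initial segments and nodes passed with limma (4 at an unadjusted p under 0.05, against 29.6% of all genes, median -0.21). Ank3, the ankyrin that holds sodium channels at the initial segment, lay lower in every R6/2 mouse (-0.22 ± 0.076, adjusted p = 0.0791), and it passed with the intensity trend (adjusted p = 0.0333), with array weights (0.0333), with the mean of its probe sets (0.0133) and without wild-type mouse 63 (0.0448), out of a range of 0.0133 to 0.299 over the alternatives with all arrays. Cntn1, a cell adhesion partner of the channel, differed by 0.031 ± 0.099 (adjusted p = 0.868). Of 4 other sodium channel alpha genes with a named probe set, Scn9a was called higher, by 0.65 ± 0.19 (adjusted p = 0.0423), from a dim 4.38 ± 0.47 to 5.03 ± 0.091. That call failed when any of 7 arrays was left out (adjusted p of at most 0.0991) and with the cortical mean as a covariate (0.32, adjusted p = 0.446). Its probe set, 1442810_x_at, is of a class that can bind related transcripts and was not called over probe sets (adjusted p = 0.0597). The call was also lost without _s_at and _x_at probe sets (0.13, adjusted p = 0.546), with the mean of the gene's probe sets (0.26, adjusted p = 0.0923) and without moderation of variances (adjusted p = 0.155). Scn7a, Scn10a and Scn11a had means between 3.36 and 3.92, near background, and did not pass. Among the other Scn9a probe sets, 1442809_at rose by 0.40 (adjusted p = 0.0412 over probe sets) while the dim 1421660_at (mean 3.35) gave -0.13 (adjusted p = 0.267), and neither 1442333_a_at (0.23, adjusted p = 0.320) nor 1457819_at (0.13, adjusted p = 0.588) was called.

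**Figure D4:**
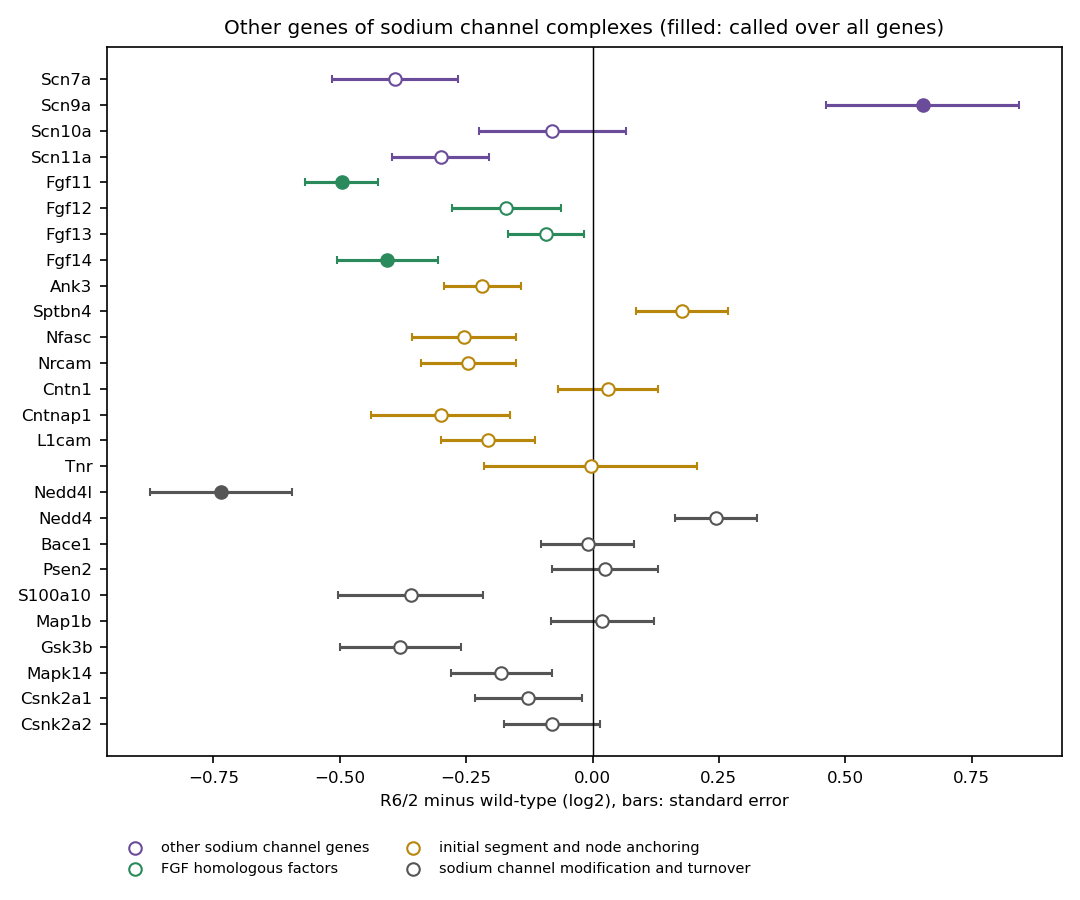
The difference R6/2 minus wild-type (log2, horizontal axis) with its standard error is plotted for 26 other genes of sodium channel complexes in 4 lists. Filled points mark Scn9a (0.65), Fgf11 (-0.50), Fgf14 (-0.41) and Nedd4l (-0.73), which were called over all genes.

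Likeness of pattern was measured as Pearson's r over the 8 arrays among 9096 other genes at or above the median level, for the members whose reference probe set was called over probe sets, Scn4b and Scn8a. The points share the genotype difference, so these are descriptions. Scn4b was most like Rgs9, which speeds the deactivation of G proteins in striatal neurons (r = 0.996), Sdr39u1 (0.996) and the clock-related transcription factor gene Npas2 (0.995). Their own differences were -1.29, -2.19 and -1.18. For Scn8a the closest were Prxl2b (r = 0.994), Stard10 (0.993) and Ctxn1 (0.988), with differences of -0.34, -0.61 and -0.83. Measured on deviations from the group means, which leave out the genotype difference, the closest to Scn4b were Msl3l2 (r = 0.968), Tiam2 (0.965) and Nagpa (0.962), and to Scn8a Arl16 (0.989), Stard10 (0.978) and Golga7b (0.970). The differences of these genes between genotypes were 0.15, -0.63 and 0.16, and 0.23, -0.61 and -0.33, of which those of Tiam2 and Stard10 were called over genes. Among wild-type mice Scn4b deviated most in mouse 63, at 11.98 beside 12.39 to 12.44 in the others. Stard10 was the gene named for Scn8a by both measures, which come from the same 8 arrays and are not independent. How high r would rise by chance among 9096 genes was not tested.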

How the data were processed

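Biotin-labelled striatal RNA of each of 8 mice went onto its own Affymetrix array, per the labels' protocols. What the authors deposited is 1 log2 value per probe set and mouse, made with RMA in affy according to the submitters' processing notes (no versions stated). Every column was mapped to a mouse by its label, and groups and mouse numbers came from the titles. A further wild-type mouse, counted in the series description (5 in all), was not analysed here. The labels number each mouse separately, so p-values measure the spread between animals.

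Of 45101 probe sets 64 controls were left out. Names came from the platform annotation, updated by Entrez ID to RefSeq symbols: 34945 probe sets had 1 symbol, 932 several and 9160 no entry, and the values come with no genome build. The genotypes were fitted with limma 3.58.1 (R 4.3.3; lmFit, eBayes, 8 arrays) over 45037 probe sets and, with the brightest probe set of each gene as its reference, over 18193 genes. Percent of wild-type is 100 times 2 raised to the log2 difference, and RMA compresses differences near background. Within-array differences were tested by exact 2-sided permutation over 70 arrangements. Members and gene lists were chosen with earlier results of these data known. Named genes were all members, up to 4 called genes of each pathway list with the smallest adjusted p (or the 2 brightest), and the 3 genes most like each member whose reference probe set was called over probe sets. Markers of cell types were summarised as list means per array. The alternatives were quantile normalization, median centring, leaving out the dimmest 40%, an intensity trend, no moderation, array weights, a cortical covariate, leaving out _s_at and _x_at probe sets, the mean of a gene's probe sets, and leaving out each array. Tested on simulated data (5 simulations of 45037 probe sets, 200 changed, wild-type against R6/2), the fit called 49.6% of log2 changes of 0.5, 98.8% of 1 and 100% of 2, and 6.13% of calls were unchanged probe sets. Promoter windows are those of RefSeq, GRCm38.p6. Plots used matplotlib 3.10.9 under Python 3.11.15.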

Additional observations from a re-analysis of the deposited data

Results flagged for a closer look

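Among 40 groups of 4 mice (20 probe sets in each genotype), 2 held a mouse whose gap to the nearest other mouse exceeded Dixon's 95% critical value, and chance gives about 1 in 20. For Scn4b, wild-type mouse 63 read 11.98, while the other wild-type mice lay between 12.39 and 12.44, and it was 1.80 above the highest R6/2 mouse. For Scn2b 1430648_at, R6/2 mouse 70 read 10.26, while the other R6/2 mice lay between 11.09 and 11.26. The same mouse was not set apart in Scn2b 1436134_at, at 9.91 in a range of 9.62 to 10.10.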

How the results depend on the processing

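No paired analysis was possible because the groups share no mouse numbers. Scn4b and Scn8a 1439889_at kept their direction and their call under every alternative run for them, and the 10 pair differences without overlap kept their direction with quantile normalization and without any 1 array. The 4 probe sets called lower were 2 with the cortical covariate (Scn4b and Scn8a 1439889_at) and 4 without any 1 array. The 1 called higher was 2 with quantile normalization, median centring, the intensity trend and without the dimmest 40%, where Scn3b 1435767_at was also called (adjusted p from 0.0330 to 0.0468), 0 without moderation or with the cortical covariate, and 0 to 1 without 1 array. Over genes, 2 members were called lower (1 with the cortical covariate, 2 without any 1 array) and 1 higher (0 without moderation or with the covariate, 0 to 1 without 1 array). The covariate leaves 5 residual degrees of freedom in place of 6. The cortical mean was itself lower in the R6/2 group (6.25 against 6.87, with overlap), so it shares part of the genotype difference. With it the SE of Scn2b 1436134_at rose from 0.11 to 0.16, and that of Scn8a 1423515_at from 0.068 to 0.095. Signs turned only for differences that were not called: with the covariate Scn1a 1441728_at (0.22), Scn3a 1421705_at (0.064) and Scn2b 1457144_at (0.045, and 0.015 with quantile normalization). Without 1 array the ranges crossed 0 for Scn1a 1450121_at (-0.22 to 0.0076), Scn1a 1441728_at (-0.15 to 0.13), Scn8a 1451894_a_at (-0.20 to 0.025), Scn2b 1430648_at (-0.34 to 0.13), Scn2b 1457144_at (-0.097 to 0.046) and Cntn1 (-0.065 to 0.094). The causes were not tested. Leaving out 1 array leaves an exact test of 3 against 4 mice that cannot pass, so pair differences were then read as values only. With 4 mice a group, log2 differences near 0.5 were called in 49.6% of simulated cases, where 200 of 45037 probe sets changed. In the data 10.1% of probe sets were called, so a less strict unadjusted p sufficed there and the simulated share need not hold. A missed threshold at that size does not show that values did not differ.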
